A study of Drosophila melanogaster with 16 samples.

Results

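The genes described here encode proteins that *Drosophila melanogaster* males transfer to females in the seminal fluid. They were taken from the table of gene counts by FlyBase symbol: every symbol that starts with *Acp* and 2 digits except the cuticle gene *Acp65Aa*, every symbol that starts with *Sfp* and a digit or with *Mst57D*, and *SP*, *Dup99B*, *Ebp* and *EbpII*. The rule found 52 genes of the 17490 in the table, and it used no measured value. All 52 are annotated as protein coding. Each sample was a pool of 30 whole flies, aged 3 to 5 days, and ribosomal RNA was depleted before sequencing.

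The study compared 3 deletion lines, *208-ΔA*, *208-ΔF* and *208-ΔG*, with DGRP_208, the inbred wild-type line in which the deletions were made by CRISPR-Cas9. Each deletion takes away the promoter and exon 1 of *Uhg4*, a long noncoding RNA that hosts small nucleolar RNAs. Flies homozygous for the deletions were used, the stocks being kept over the balancer *CyO*. Females and males of each line were sequenced in 2 samples each, which gives 8 groups and 16 libraries. Each line is 1 deletion in 1 genetic background, and the mating status of the flies is not given in the sources used here. Whether the 2 samples of a group came from separate cultures is likewise not given beyond their being called biological replicates, so p-values measure the spread between these samples.

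Seminal fluid proteins are made in the male accessory glands, the ejaculatory duct and the ejaculatory bulb. After transfer they change the behaviour and physiology of the mated female. Sex peptide, the product of *SP*, raises egg laying and lowers receptivity through the sex peptide receptor, to which the duct peptide encoded by *Dup99B* also binds. *Acp26Aa* encodes ovulin, which stimulates ovulation, *Acp36DE* encodes a protein needed for sperm storage, and *Acp62F* encodes a protease inhibitor. *Ebp* and *EbpII* encode proteins of the ejaculatory bulb, and the product of *Ebp* is part of the mating plug.

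Library depth ranged from 13902521 to 51954693 counts, and the median level of 185 chemoreceptor genes, which few cells of a fly use, ranged from 0.350 to 5.92 RPKM, which is counts per kilobase of gene scaled to library size. Levels that are not set per kilobase are in CPM, the counts of a gene per library, scaled in the same way, and both are corrected by TMM except in the chemoreceptor median. The factors of the trimmed mean of M values (TMM), which scale the libraries to each other, ranged from 0.796 to 1.47. *208-ΔA* male replicate 2 stood apart among males in genes of the ovary and fat body of females: *Yp1*, a yolk protein gene, was at 183 CPM there and at 3.98 to 28.5 CPM in the other male libraries, and the eggshell gene *Vm26Ab* was at 77.0 CPM against 0.744 to 7.13 CPM. The targeted gene checks the labels. *Uhg4* was at 0.195 to 0.672 CPM in deletion females, against 6.66 and 6.67 CPM in DGRP_208 females, and at 0.213 to 1.02 CPM in deletion males, against 1.89 and 0.974 CPM in DGRP_208 males. The groups did not overlap in females and did overlap in males.

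No member lies on the X chromosome, which holds 14.9% of the genes with a symbol and an annotated place, and 23 of 52, or 44.2%, lie on 2L, which holds 19.7% of them. The other members are spread over 2R with 10, 3L with 9 and 3R with 10. In the dm6 assembly, 26 members lie within 10000 bases of another member, in 8 clusters. *Sfp24Ba*, *Sfp24Bd*, *Sfp24Bb* and *Sfp24Bc* share a stretch of 2L from 3667977 to 3670581, with *Acp24A4* and *Sfp24C1* at 3693184 to 3701092. The ovulin gene lies with *Acp26Ab* and *Sfp26Ac* on 2L at 5884350 to 5893896, and *Sfp33A4*, *Sfp33A2* and *Sfp33A3* on 2L at 11837243 to 11840329. On 2R, *Sfp53D*, *Acp53C14a*, *Acp53C14b*, *Acp53Ea* and *Acp53C14c* occupy 16744295 to 16751495, and *Sfp60F*, *EbpII* and *Ebp* occupy 25172245 to 25176715. *SP* lies beside *Sfp70A4* on 3L at 13296530 to 13301922, and *Mst57Dc*, *Sfp96F*, *Mst57Db* and *Mst57Da* lie on 3R at 25829321 to 25831899.

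The members are short. The median length over which reads were counted was 409.5 bases, against 1428 bases for all genes, and the longest annotated proteins ranged from 25 to 912 residues with a median of 88.5. At most 2 exons were annotated for 47 members, and 17 have a single exon. *Acp95EF*, *Sfp78E* and *Sfp84E* share exon bases with a gene on the other strand, and whether counting used strand is not given, so their reads cannot be told apart from those of the overlapping genes. *Acp95EF* had 0 counts in all 16 libraries, which allows at most 3 of all the counts of the table. That limit holds for counted reads only. Because of the shared exon bases it sets no limit on the expression of *Acp95EF*, which entered no test. The other 51 members had counts in every male library and passed the filter of a median of at least 2 counts over the 16 libraries.

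Per kilobase of gene, the seminal fluid protein genes of males spanned a wide range. Mean levels over the 8 male libraries ran from 4.81 RPKM for *Sfp38D* to 10059 RPKM for *Mst57Db*, and 27 members were above 100 RPKM. The median member stood at the 95.7th percentile of all genes per kilobase, and 10 members were among the 100 highest. Below *Mst57Db*, the order of mean RPKM was *Sfp60F* with 2382, *Sfp87B* with 1697, *Mst57Da* with 1555, *Ebp* with 1522, *Dup99B* with 1386, *Sfp96F* with 1279.9, *SP* with 1257, *EbpII* with 1160.5 and *Mst57Dc* with 691. Their ranges over libraries overlap from one rank to the next after *Mst57Db*, whose lowest library, 5774 RPKM, was above the highest of every other member. That lead rests on division by a counted length of 195 bases. In CPM the male mean of *Ebp* was 2327, against 1961 for *Mst57Db*. How well such short lengths serve as divisors was not tested.

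Next came *Acp36DE*, *Acp53Ea*, *Acp53C14b*, *Acp98AB*, *Acp33A*, *Acp62F*, *Sfp24Bb*, *Sfp33A3*, *Acp53C14a*, *Sfp24Ba*, *Acp26Aa*, *Acp32CD*, *Acp63F*, *Acp24A4*, *Sfp26Ad*, *Sfp70A4* and *Sfp79B*, with means of 105 to 554 RPKM. Another 21 members, *Acp54A1*, *Acp26Ab*, the serpin gene *Acp76A*, *Sfp65A*, *Sfp51E*, *Acp53C14c*, *Sfp36F*, *Sfp93F*, *Sfp35C*, *Sfp24F*, *Sfp23F*, *Sfp53D*, *Sfp78E*, *Sfp26Ac*, the lectin gene *Acp29AB*, *Sfp24C1*, *Sfp33A4*, *Sfp24Bc*, *Sfp24Bd*, *Sfp77F* and *Sfp84E*, had means of 11.8 to 99.0 RPKM. *Sfp33A1*, *Sfp33A2* and *Sfp38D* had the lowest means, 9.18, 8.90 and 4.81 RPKM.

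**Figure D1:**
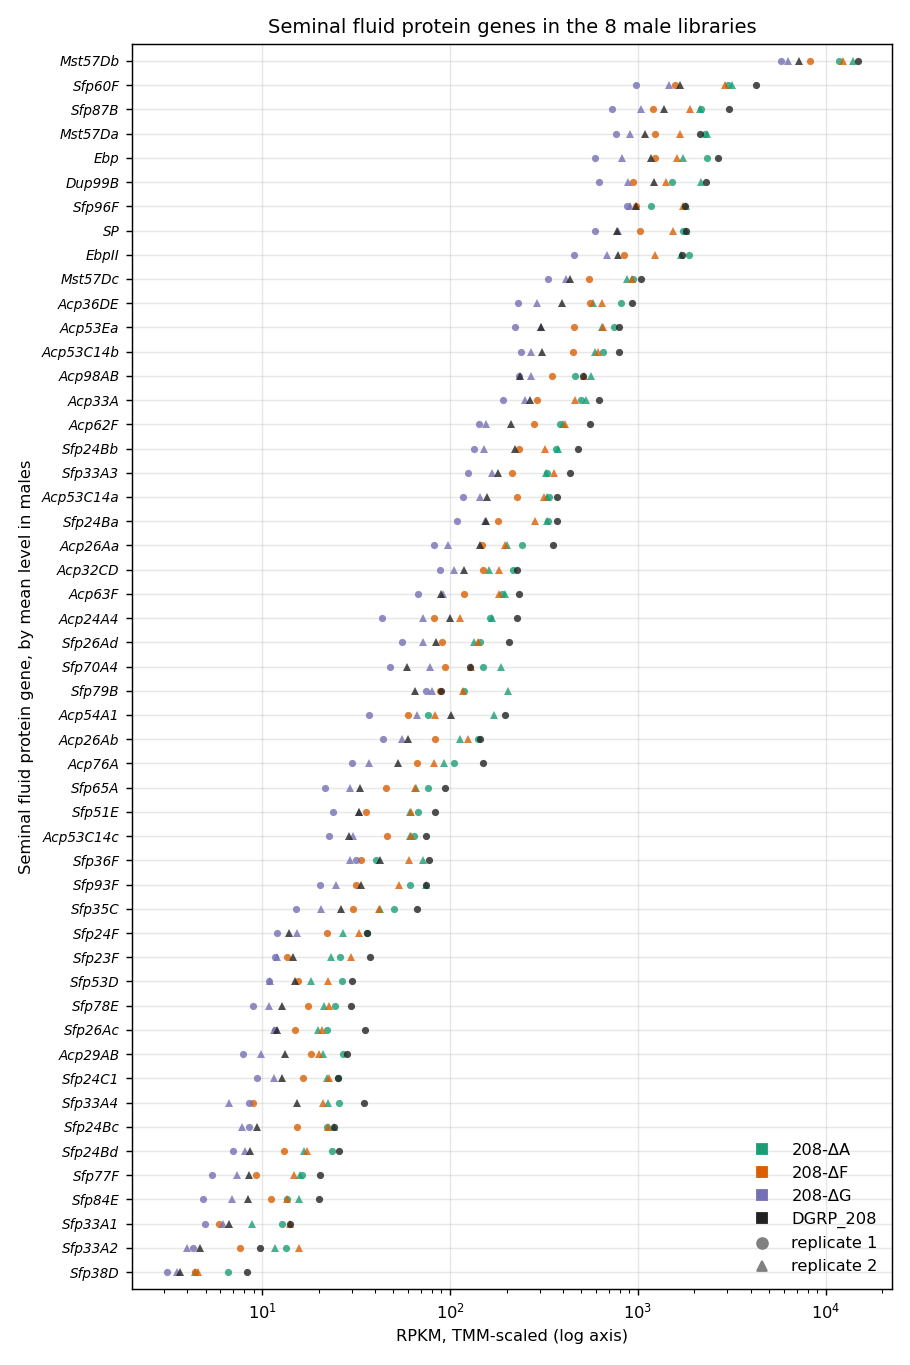
Level of 51 seminal fluid protein genes in each of the 8 male libraries, in TMM-scaled RPKM on a log axis, with genes ordered by their mean. Colours give the line and symbols the replicate. Both 208-ΔG libraries lie left of both 208-ΔA libraries in all 51 rows and left of both DGRP_208 libraries in 43. DGRP_208 replicate 1 lies right of DGRP_208 replicate 2 in all 51 rows.

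Together the members took 0.783% to 1.60% of all counts in males. A few genes made most of this. The 5 largest held 61.0% of the members' counts on average and the 10 largest held 78.7%. *Ebp* held 18.5%, *Mst57Db* 16.4% and *Acp36DE* 13.002% of them on average over the 8 male libraries, followed by *Sfp60F* with 7.56%, *EbpII* with 5.60% and *Sfp87B* with 5.41%. *Ebp* and *Acp36DE* are longer genes, so they rank higher by counts than per kilobase.

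The first comparison set males against females over the 4 lines. The members carry names given for products of the male reproductive tract, so that the direction is no independent finding and the size is what the libraries measured. All 51 members tested were higher in males in edgeR's quasi-likelihood test with Benjamini-Hochberg adjustment over all genes kept, with adjusted p of 6.6e-04 at most, where 39.8% of all genes passed the test and 20.8% passed it as higher in males. The filter could pass a member on its male libraries, and *Acp95EF*, which was left out, had no counts. In all 51 members every male library was above every female library, which held for 12.8% of all genes. The log2 fold changes of males over females ranged from 3.31 for *Sfp33A2* to 9.76 for *Sfp60F*, with a median of 6.44, against -0.03 over all genes.

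Sex peptide and its duct relative were set side by side across all libraries. *SP* was at 386 and 403 CPM in *208-ΔA* males, 229 and 341 CPM in *208-ΔF* males, 133 and 175 CPM in *208-ΔG* males, and 402 and 173 CPM in DGRP_208 males, with replicate 1 before replicate 2. In females it was at 0.0551 to 0.427 CPM in 7 libraries and at 4.86 CPM in *208-ΔF* female replicate 2. The log2 fold change of males over females was 9.54 ± 0.56 (SE, adjusted p = 5.0e-07 in edgeR). Every male level of *SP* was far above every female level, and the 2 DGRP_208 males were further apart than the 2 males of any deletion line. *Dup99B* was at 470.1 and 669 CPM in *208-ΔA* males, 294 and 439.8 CPM in *208-ΔF* males, 191 and 276 CPM in *208-ΔG* males, and 718 and 379 CPM in DGRP_208 males. Female libraries held 0.653 to 13.6 CPM of *Dup99B*, the highest being *208-ΔG* female replicate 1, and the log2 fold change was 6.45 ± 0.50 (SE, adjusted p = 2.1e-06 in edgeR). Unlike *SP*, *Dup99B* was thus above 5 CPM in 4 of the 8 female libraries. These were *208-ΔF* replicate 2, both of *208-ΔG* and DGRP_208 replicate 1, whose chemoreceptor medians of 1.96 to 5.92 RPKM were the highest among females. In the other 4 female libraries that median was 0.350 to 0.931 RPKM. The part of that background in the *Dup99B* level was not tested.

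The genes of ovulation, sperm storage and protease inhibition were likewise lowest in *208-ΔG* males. *Acp26Aa* was at 231 and 192 CPM in *208-ΔA* males, 142 and 188 CPM in *208-ΔF* males, 79.1 and 93.5 CPM in *208-ΔG* males, and 339 and 139 CPM in DGRP_208 males. *Acp36DE* was at 2369.5 and 1682 CPM in *208-ΔA* males, 1615 and 1882 CPM in *208-ΔF* males, 668 and 853 CPM in *208-ΔG* males, and 2717 and 1156 CPM in DGRP_208 males. For both genes DGRP_208 replicate 1 was the highest male library and both *208-ΔG* libraries were the lowest. *Acp62F* was at 185 and 191 CPM in *208-ΔA* males, 134 and 195 CPM in *208-ΔF* males, 67.9 and 74.4 CPM in *208-ΔG* males, and 267 and 102 CPM in DGRP_208 males. Log2 fold changes of males over females were 7.21 for *Acp26Aa*, 7.79 for *Acp36DE* and 7.55 for *Acp62F*, with SE of 0.42 to 0.46 and adjusted p of 4.6e-07 to 6.4e-07 in edgeR.

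The *Mst57D* genes encode small male-specific proteins of the accessory gland. *Mst57Db* was at 2283 and 2727 CPM in *208-ΔA* males, 1611 and 2415 CPM in *208-ΔF* males, 1126 and 1226 CPM in *208-ΔG* males, and 2893 and 1409.9 CPM in DGRP_208 males. *Mst57Da* was at 744 and 759.9 CPM in *208-ΔA* males, 399 and 547 CPM in *208-ΔF* males, 249 and 295 CPM in *208-ΔG* males, and 694 and 355 CPM in DGRP_208 males. *Mst57Dc* was at 357 and 329 CPM, 208 and 354 CPM, and 126 and 157 CPM in males of *208-ΔA*, *208-ΔF* and *208-ΔG*, and at 392 and 165 CPM in DGRP_208 males. Per kilobase the 3 neighbouring genes kept their order in each male library, with *Mst57Db* highest and *Mst57Dc* lowest. Their log2 fold changes of males over females were 9.58 ± 0.63, 8.22 ± 0.47 and 7.10 ± 0.49 (SE) for *Mst57Db*, *Mst57Da* and *Mst57Dc*, with adjusted p of 4.6e-07 to 9.8e-07 in edgeR.

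The ejaculatory bulb was represented by 2 of the most abundant members. *Ebp* was at 3554 and 2668 CPM in *208-ΔA* males, 1884 and 2472 CPM in *208-ΔF* males, 909 and 1260.0 CPM in *208-ΔG* males, and 4074 and 1795 CPM in DGRP_208 males. *EbpII* was at 1133 and 1033 CPM in *208-ΔA* males, 513 and 752 CPM in *208-ΔF* males, 278 and 416 CPM in *208-ΔG* males, and 1045 and 474 CPM in DGRP_208 males. Per kilobase *Ebp* exceeded *EbpII* in each male library, and for both genes the 2 samples of DGRP_208 lay on either side of the *208-ΔF* samples. The log2 fold changes of males over females were 9.20 ± 0.49 for *Ebp* and 9.26 ± 0.44 for *EbpII* (SE, adjusted p = 4.6e-07 and 3.0e-07 in edgeR).

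By p-value the sex difference was best supported for *Sfp24Ba*, *Acp24A4*, *Sfp87B*, *Acp63F*, *EbpII*, *Sfp33A3*, *Ebp*, *Acp36DE*, *Sfp84E* and *Acp98AB*, with adjusted p of 8.5e-08 to 4.6e-07 in edgeR. Among them the log2 fold change ran from 4.78 for *Sfp84E* to 9.34 for *Sfp87B*. The smallest log2 fold changes, beside that of *Sfp33A2*, were 3.34 for *Sfp53D* and 3.51 for *Sfp38D*.

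The second comparison asked whether the *Uhg4* deletions changed the members in males. No member passed the test. In deletion males over DGRP_208 males, 0 of 51 members were called in edgeR, against 0.0617% of all genes (10 of 16212). By unadjusted p, 0 of 51 members were under 0.05, against 2.94% of all genes, and DESeq2 called 0 members beside 61 of all genes. The median log2 fold change of the members was -0.38, against -0.05 over all genes, and 47 of 51 lay below 0, against 56.6% of all genes. The members moved together between libraries, so their signs are not independent of each other. On the TMM-scaled CPM the 6 deletion libraries and the 2 DGRP_208 libraries overlapped for every member, while 2.76% of all genes were higher and 1.54% lower in deletion males without overlap.

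That median rested on 1 library. DGRP_208 male replicate 1 was above replicate 2 in 51 of 51 members, with a median log2 difference of 1.23 against 0.23 over all genes. Without DGRP_208 male replicate 1 the median of the members in deletion males over DGRP_208 males was 0.25, with 7 of 51 below 0, and without replicate 2 it was -0.86, with 50 below 0. Neither refit called a member. Among the members the smallest p-values were those of *Acp24A4*, with a log2 fold change of -0.75 ± 0.34, *Sfp33A4* with -0.84 ± 0.53, *Sfp87B* with -0.63 ± 0.43 and *Sfp84E* with -0.48 ± 0.34 (SE, adjusted p = 0.999 for each in edgeR).

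For the genes with known roles the intervals were wide. Deletion males averaged 278 ± 114.5 CPM of *SP* (SD, n = 6) and DGRP_208 males averaged 287 ± 162 CPM (SD, n = 2), with a log2 fold change of -0.15 ± 0.59 (SE, edgeR). *Acp26Aa* averaged 154 ± 59.8 CPM in deletion males and 239 ± 141 CPM in DGRP_208 males, with a log2 fold change of -0.73 ± 0.53. The log2 fold changes of the others were -0.59 ± 0.62 for *Dup99B*, -0.48 ± 0.49 for *Acp36DE*, -0.50 ± 0.49 for *Acp62F*, -0.59 ± 0.54 for *Ebp*, -0.29 ± 0.49 for *EbpII*, and -0.19 ± 0.54, -0.25 ± 0.69 and -0.22 ± 0.59 for *Mst57Da*, *Mst57Db* and *Mst57Dc*. Each adjusted p was 0.999 in edgeR. The standard errors were as large as most of the differences, so a moderate difference could not be told from none.

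Line by line, the males of *208-ΔG* had the lowest summed levels and those of *208-ΔA* the highest among the deletion lines. The summed level of the members was 16769 and 15752 CPM in *208-ΔA* males, 10075 and 14333 CPM in *208-ΔF* males, 5649 and 7235 CPM in *208-ΔG* males, and 20109 and 8942 CPM in DGRP_208 males. On this TMM scale the 2 libraries of *208-ΔG* were the lowest of the 8, and the 2 of DGRP_208 spanned those of *208-ΔA* and *208-ΔF*. The TMM factors were 1.39 and 1.40 in *208-ΔG* males and 1.30 in DGRP_208 male replicate 2. In the other male libraries they were 0.796 to 0.940. As shares of all counts the sums were 1.35% and 1.29% in *208-ΔA*, 0.947% and 1.19% in *208-ΔF*, 0.783% and 1.01% in *208-ΔG*, and 1.60% and 1.17% in DGRP_208. By share, *208-ΔG* replicate 2 lay above *208-ΔF* replicate 1, which lay below both DGRP_208 libraries. In RNA of whole flies, fewer cells of the glands and less RNA per cell cannot be told apart.

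**Figure D2:**
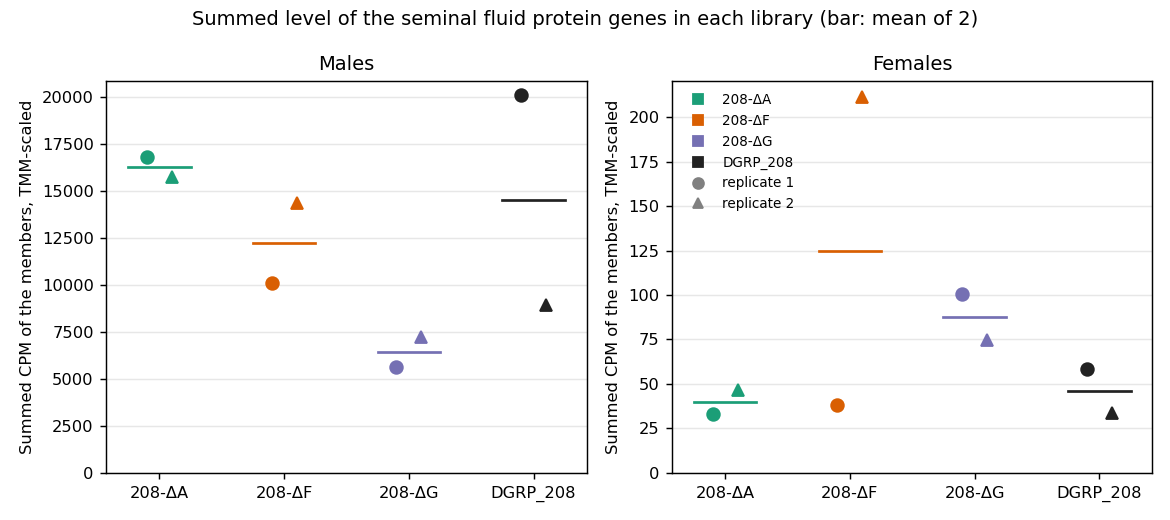
Summed TMM-scaled CPM of the 52 genes in each library, males on the left and females on the right with an axis of their own, with 1 point per library and a bar at the mean of each group's 2 libraries. Among males both 208-ΔG libraries, at 5649 and 7235 CPM, lie below all others, and among females 208-ΔF replicate 2 lies at 211 CPM.

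In *208-ΔA* males over DGRP_208 males 0 of 51 members were called in edgeR, against 0.0432% of all genes, with a median log2 fold change of 0.14 against 0.08 over all genes. The smallest p-values belonged to *Sfp70A4*, with a log2 fold change of 0.84 ± 0.62, and *Sfp79B*, with 1.06 ± 0.80 (SE, adjusted p = 0.515 and 0.528). In *208-ΔF* males over DGRP_208 males 0 of 51 were called, against 0.0308% of all genes, and the median was -0.18 against 0.03. *Acp24A4* had a log2 fold change of -0.75 ± 0.44 there and *Acp54A1* one of -1.06 ± 0.89 (SE, adjusted p = 0.979 for both in edgeR). For both lines the sign of the median depended on a single DGRP_208 library: without replicate 1 it was 0.71 in *208-ΔA* and 0.38 in *208-ΔF*, and without replicate 2 it was -0.34 and -0.69. The *208-ΔF* median was also 0.06 without *208-ΔF* male replicate 1.

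In *208-ΔG* males over DGRP_208 males all 51 members lay below 0, against 53.7% of all genes. The median log2 fold change was -1.06 against -0.08 over all genes, and 0 of 51 passed the test, against 0% of all genes. By unadjusted p 6 members were under 0.05 in edgeR, against 12.2% of all genes. That count depended on the tool. In DESeq2 17 of 51 members were under 0.05 by unadjusted p. No share over all genes was taken there, so whether the 17 exceed that share cannot be said. DESeq2 called 0 members and 103 of all genes. *Acp24A4* was at 28.5 and 47.0 CPM in *208-ΔG* males and at 148 and 65.2 CPM in DGRP_208 males, a log2 fold change of -1.50 ± 0.45 (SE, adjusted p = 0.405 in edgeR). *Sfp24Ba* was at 56.9 and 80.4 CPM in *208-ΔG* males, against 195 and 81.1 CPM in DGRP_208 males, so that the groups were separated by less than 1 CPM. The log2 fold changes of *Sfp84E*, *Sfp24Ba* and *Sfp33A4* were -1.27 ± 0.44, -1.01 ± 0.39 and -1.72 ± 0.70, with the same adjusted p. The 2 *208-ΔG* libraries lay below both DGRP_208 libraries without overlap for 43 of 51 members, against 28.2% of all genes. Without DGRP_208 male replicate 2, *Sfp24Ba*, *Sfp84E*, *Acp63F* and *Acp24A4* passed the test as lower, with log2 fold changes of -1.53 for *Sfp24Ba*, -1.79 for *Sfp84E* and -1.58 for *Acp63F* and adjusted p of 0.0402 to 0.0418 in edgeR, against 10.7% of all genes (1731 genes). Without replicate 1 the median was -0.27 and 0 were called.

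The scaling of the libraries moved these medians. Scaled to library size alone, the median of all genes in *208-ΔG* males over DGRP_208 males was 0.36 and that of the members -0.51, with 50 of 51 below 0. Relative to the median of all genes, the members were thus at -0.98 with TMM and at -0.87 with library size. A scale factor shifts all genes of a library alike, so this difference hardly depends on the scaling by construction. It is therefore no check on the scaling, under which the members' own median moved from -1.06 to -0.51. The median of *208-ΔA* males over DGRP_208 males turned to -0.070 with library size. In these males the same difference between members and all genes was 0.06 with TMM and 0.17 with library size, and in *208-ΔF* males it was -0.21 and -0.11.

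**Figure D3:**
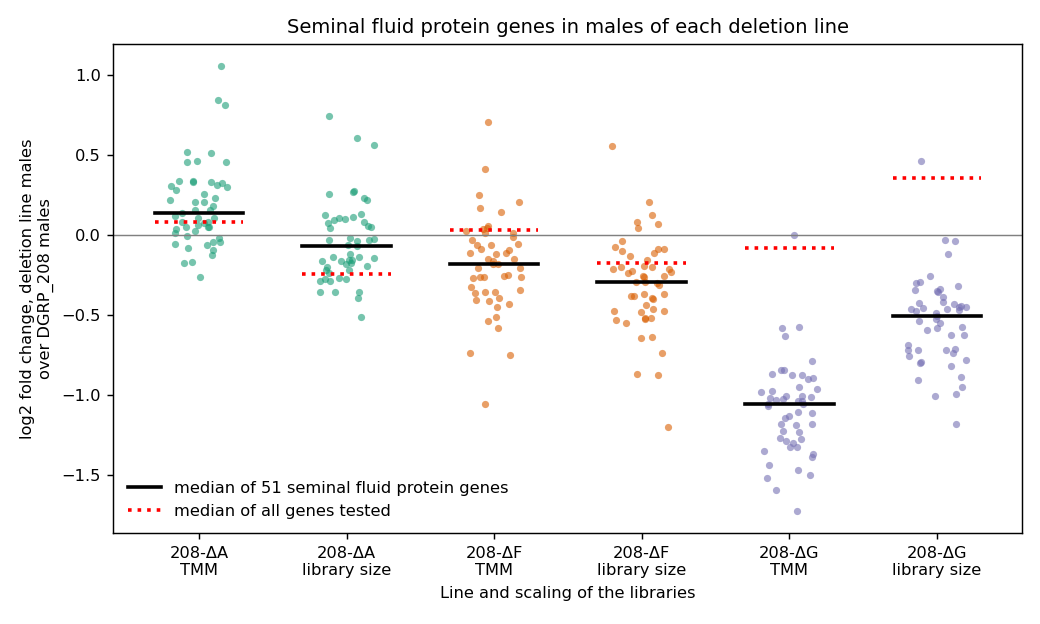
Log2 fold changes of 51 seminal fluid protein genes in males of each deletion line over DGRP_208 males, with libraries scaled by TMM or by library size. Each point is a gene, black bars are medians of the 51 genes and dotted red bars medians of all 16212 genes; the 208-ΔG medians are -1.06 and -0.51, against -0.08 and 0.36 over all genes.

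The deletion lines were also set against each other. In *208-ΔG* males over *208-ΔA* males the median log2 fold change of the members was -1.29, against -0.27 over all genes. Every member was lower in both *208-ΔG* libraries than in both *208-ΔA* libraries, which held for 49.5% of all genes. By unadjusted p 14 of 51 members were under 0.05, against 48.0% of all genes. None passed after adjustment, against 0% of all genes, the smallest adjusted p being 0.0624 in edgeR, for *Sfp24Ba*, with a log2 fold change of -1.33 ± 0.39 (SE), and *Acp24A4*, with -1.51 ± 0.45. *Acp63F* was at -1.28 ± 0.42 and *Sfp84E* at -1.31 ± 0.44 (SE, adjusted p = 0.0633 and 0.0636). DESeq2 called 11 of 51 members lower there, against 41.7% of all genes (6757 genes), and 11 were under an adjusted p of 0.1 in edgeR, against 46.8%. Without DGRP_208 male replicate 2 edgeR called 8 members, against 40.0% of all genes, and without DGRP_208 male replicate 1 it called 4, against 31.3%. In each of these the members were called at a lower share than all genes.

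For *208-ΔG* over *208-ΔF* males the median of the members was -0.91, against -0.23 over all genes, with 0 of 51 called against 0% of all genes and a smallest adjusted p of 0.191 for *Sfp84E* (-1.07 ± 0.44, SE). *Acp63F* was at -0.91 ± 0.42, *Sfp24Ba* at -0.82 ± 0.39 and *Acp53C14a* at -1.05 ± 0.53. Without *208-ΔF* male replicate 2 the median of this comparison was -0.35. In *208-ΔF* over *208-ΔA* males it was -0.33, against 0.05 over all genes, and again 0 of 51 were called, against 0% of all genes. Without *208-ΔF* male replicate 1 that median was -0.095, and without replicate 2 it was -0.65. A test of any difference among the 4 lines of males called 0 of 51 members, against 0.0493% of all genes (8 of 16212), with a smallest adjusted p among members of 0.251 in edgeR. By unadjusted p, 2 of 51 members were under 0.05 in that test, against 19.8% of all genes, and 1 in *208-ΔG* over *208-ΔF* males, against 23.8%. None was under 0.05 in *208-ΔF* over *208-ΔA* males, against 2.15% of all genes, in *208-ΔA* males over DGRP_208 males, against 9.76%, or in *208-ΔF* males over DGRP_208 males, against 3.16%. DESeq2 called 0 members in each of these and in *208-ΔG* males over DGRP_208 males, beside 3 to 538 of all genes.

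Other properties of the libraries moved with the members. The 4 male libraries with the highest chemoreceptor medians, both of *208-ΔG* at 4.19 and 4.22 RPKM, *208-ΔF* replicate 1 at 1.86 RPKM and DGRP_208 replicate 2 at 3.45 RPKM, were the 4 with the lowest summed levels of the members. In the other 4 male libraries that median was 0.465 to 0.754 RPKM. With the chemoreceptor level added to the model, which was decided once the data had been seen, the median of the members in *208-ΔG* males over DGRP_208 males was -0.81, against -0.13 over all genes, and no member was called in any comparison among males. The summed level of 21 testis markers was 2504 and 2696 CPM in *208-ΔG* males, and 2528 CPM in DGRP_208 male replicate 2, against 4924 to 6959 CPM in the other male libraries. The part of these library properties in the results was not tested further.

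Between male libraries the shares of the members varied less than their levels. The highest male CPM of a member was 3.47 times its lowest at the median, and 0 members varied by less than 1.5-fold. As a share of the members' summed counts, the highest male library was 1.38 times the lowest at the median, and 34 of 51 members varied by less than 1.5-fold. *Sfp77F* held 0.101% to 0.113% of the members' counts in the 8 libraries. *Sfp79B* varied most, from 0.104% to 0.308%, followed by *Acp54A1*, *Sfp36F*, *Sfp33A2* and *Sfp96F*, at 0.139% to 0.345%, 0.0609% to 0.142%, 0.0162% to 0.0371% and 1.18% to 2.61%.

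These shares do not depend on how libraries are scaled. For 7 members the share was higher in all 6 deletion male libraries than in both DGRP_208 libraries, and for 5 it was lower. Taken over all genes as a ratio to the members' summed counts, 14% were higher and 0.506% lower without overlap. The 7 higher members are thus near the share of all genes. With male libraries scaled to the members' summed counts, the median log2 fold change of deletion males over DGRP_208 males was 0.22 over all genes. Over the members it was 0.068. All genes thus leaned upward in this ratio, so neither percentage is a measure of chance for the 7 higher or 5 lower members. The values of both sets are a description. The share of *SP* was 2.30% and 2.56% in *208-ΔA* males, 2.28% and 2.38% in *208-ΔF* males, 2.35% and 2.42% in *208-ΔG* males, and 2.00% and 1.93% in DGRP_208 males. Its neighbour *Sfp70A4* held 0.281% to 0.393% in the deletion males, and 0.211% and 0.220% in DGRP_208 males. *Acp98AB* held 0.481% to 0.717% in deletion males and 0.445% and 0.464% in DGRP_208 males, and *Mst57Dc*, *Acp53C14a*, *Acp53C14c* and *Sfp33A2* were also higher.

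The ovulin gene was among those with a lower share. *Acp26Aa* held 1.38% and 1.22% in *208-ΔA* males, 1.41% and 1.31% in *208-ΔF* males, 1.40% and 1.29% in *208-ΔG* males, and 1.69% and 1.56% in DGRP_208 males. *Sfp87B* held 4.73% to 5.67% in deletion males and 5.99% and 6.11% in DGRP_208 males, and *Acp24A4* held 0.505% to 0.694% in deletion males and 0.738% and 0.729% in DGRP_208 males. *Sfp24Bb* and *Sfp33A4* were the others. In a fit over all genes of the male libraries scaled to the members' summed counts, chosen after seeing the data, no member passed the test in any comparison among males. The log2 changes in share of deletion males over DGRP_208 males were 0.58 ± 0.27 for *Sfp70A4*, 0.28 ± 0.13 for *SP*, 0.44 ± 0.21 for *Acp98AB* and -0.28 ± 0.15 for *Acp26Aa* (SE, adjusted p of 0.586 to 0.638 in edgeR).

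**Figure D4:**
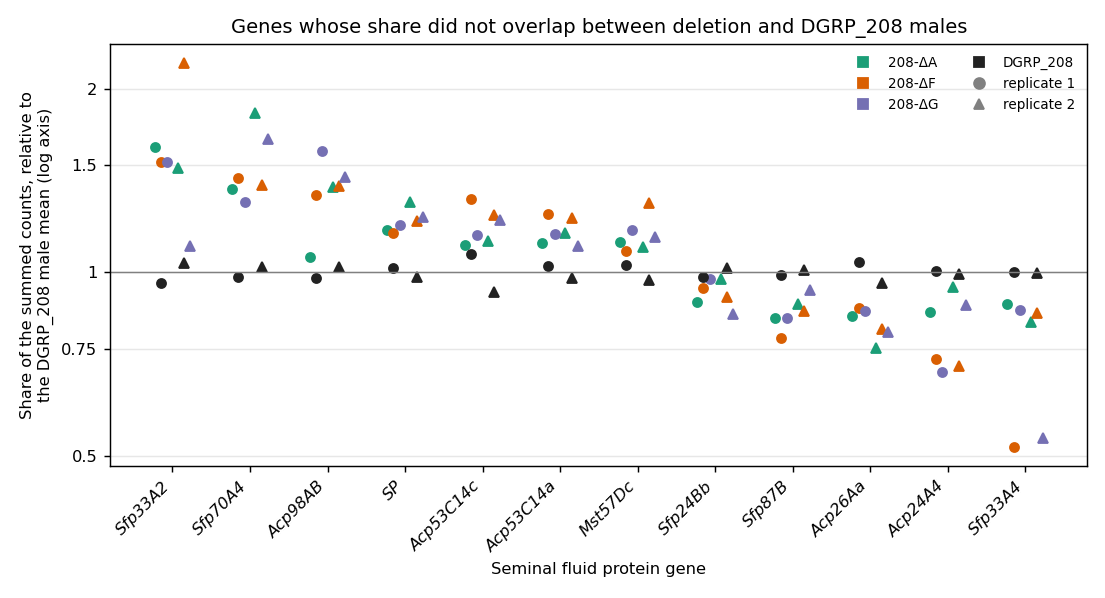
Share of the members' summed counts held by the 12 genes picked because their deletion male and DGRP_208 male libraries did not overlap, divided by the DGRP_208 male mean, on a log axis. Each point is 1 male library, with colours for lines and symbols for replicates. In all 6 deletion libraries 7 genes lie above and 5 below the DGRP_208 points, where 14% of all genes lie above and 0.506% below. All genes lean upward in this ratio, so neither percentage is a measure of chance for the members.

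In females the members were near the bottom of the scale. They took 0.00265% to 0.0228% of the counts, and their summed level was 32.9 and 46.5 CPM in *208-ΔA*, 38.4 and 211 CPM in *208-ΔF*, 100.3 and 74.7 CPM in *208-ΔG*, and 58.7 and 33.9 CPM in DGRP_208. Counts were found in all 8 female libraries for 36 members, and none of the 51 was without a count in every female library. Per kilobase, 24 to 42 of the 52 members were at or below the chemoreceptor median of their own female library, and in males only *Acp95EF* was.

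Among abundant members the female libraries differed. In *208-ΔF* female replicate 2, *Mst57Db* had 1584 counts, or 33.3 CPM, against 0.844 to 1.96 CPM in the other 7 female libraries. *Acp36DE* was at 28.4 CPM there and at 4.22 to 6.78 CPM in the others, and *Ebp* at 16.9 CPM and at 1.51 to 3.51 CPM. This library was the highest female library for 32 of 51 members. It also had the highest summed level of testis markers among females, 480.0 CPM against 275 to 341 CPM.

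Relative to their male level the members differed in that library. Of the 26 members with a male mean of at least 50 CPM, 6 were at 0.501% to 0.726% of it, and the other 20 were at 1.70% to 12.01%, with a median of 2.34%. The first 6 were *Sfp87B*, *Acp24A4*, *EbpII*, *Sfp60F*, *Sfp24Ba* and *Ebp*, which include both members named for the ejaculatory bulb and their neighbour *Sfp60F*. *Ebp* rested on 803 counts and *EbpII* on 202. *SP*, *Acp26Aa*, *Acp36DE*, *Acp53Ea*, *Mst57Da* and *Mst57Db*, by contrast, lay close together at 1.70% to 1.77%. In another female library 6 of the 26 were higher, *Acp32CD* at 20.9%, *Acp33A*, *Sfp24Bb*, *Dup99B*, *Acp63F* and, at 0.618% against 0.559%, *Acp24A4*. The split into 6 and 20 was noticed in the data, and the line at 1% was drawn after the values were seen.

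**Figure D5:**
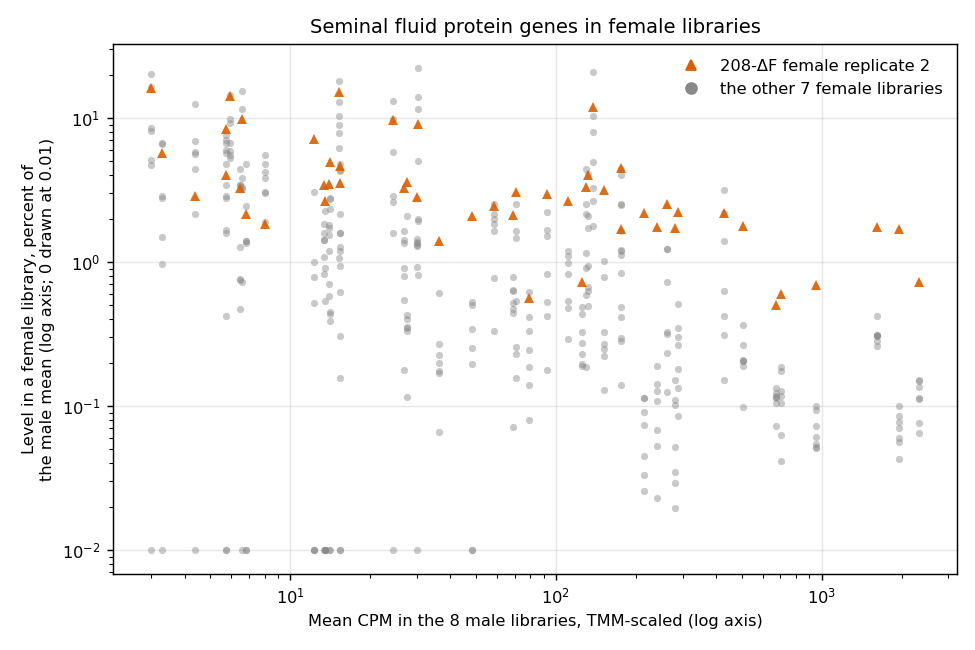
Level of each of 51 seminal fluid protein genes in each female library as a percentage of its mean over the 8 male libraries, against that male mean, both on log axes, with levels of 0 drawn at 0.01. Orange triangles mark 208-ΔF female replicate 2, in which 6 abundant genes lie at 0.501% to 0.726% and the other abundant genes at 1.70% or above; grey points are the other 7 female libraries.

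Mean levels of males and females lay closest for *Sfp53D*, *Sfp33A2*, *Sfp38D*, *Acp54A1* and *Acp32CD*, with male means 9.92 to 12.5 times the female means. *Acp32CD* was at 2.45 and 6.83 CPM in *208-ΔA* females, 4.49 and 16.6 CPM in *208-ΔF* females, 28.9 and 14.4 CPM in *208-ΔG* females, and 11.1 and 3.69 CPM in DGRP_208 females. *Acp54A1* was at 0.245 and 1.52 CPM, 0.580 and 2.75 CPM, and 6.74 and 4.22 CPM in females of *208-ΔA*, *208-ΔF* and *208-ΔG*, and at 3.52 and 0.606 CPM in DGRP_208 females. Its highest female library reached 59.2% of its lowest male library, the closest approach of any member. For *Acp32CD*, *Acp54A1*, *Dup99B*, *Sfp79B* and *Sfp53D* the highest female library was *208-ΔG* replicate 1, whose chemoreceptor median of 5.92 RPKM was the highest of the 16 libraries. *Sfp38D* was highest in *208-ΔG* replicate 2. *Sfp33A2* was highest in DGRP_208 female replicate 2, whose chemoreceptor median was 0.612 RPKM. The part of the chemoreceptor background in these levels was not tested.

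In deletion females over DGRP_208 females 0 of 51 members were called in edgeR, against 0.13% of all genes (21 of 16212), while *Uhg4* itself was (log2 fold change -3.87, adjusted p = 4.7e-03). The median of the members was 0.46, against -0.01 over all genes. Above 0 lay 38 of 51 members and below 0 lay 13, against 51.1% of all genes below 0. That median was -0.01 without *208-ΔF* female replicate 2, 0.20 without *208-ΔA* female replicate 2 and 1.13 without DGRP_208 female replicate 1. By unadjusted p, *Sfp33A1* and *Sfp93F* were under 0.05, against 3.78% of all genes, with log2 fold changes of -1.72 ± 0.62 and 2.85 ± 1.08 (SE, adjusted p = 0.961 and 1.00). Neither exceeded 0.547 CPM in any female library. *Sfp24C1* had a log2 fold change of 1.75 ± 0.84 and *Mst57Db* one of 1.82 ± 0.88. Without 1 library in turn the values ranged from -2.63 to -1.54 for *Sfp33A1*, 1.48 to 5.23 for *Sfp93F*, -0.056 to 3.04 for *Sfp24C1* and 0.75 to 2.14 for *Mst57Db*. DESeq2 called 0 members and 67 of all genes there. By its unadjusted p 7 of 51 members were under 0.05, for which no share over all genes was taken.

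The difference between the deletion effects of males and females was tested directly. It was called for 0 of 51 members, against 0% of all genes, and the median of the members was -0.85, against -0.02 over all genes. That median was -0.28 without DGRP_208 male replicate 1 and -1.33 without DGRP_208 male replicate 2, -1.40 without DGRP_208 female replicate 1, -0.47 without *208-ΔF* female replicate 2 and -0.55 without *208-ΔA* female replicate 2. By unadjusted p 1 of 51 members was under 0.05 in edgeR, against 2.54% of all genes. DESeq2 called 0 members and 19 of all genes, with 7 of 51 members under 0.05 by unadjusted p. No share over all genes was taken for those 7. *Sfp93F* had the largest support, with a difference of -3.27 ± 1.19 on the log2 scale (SE, adjusted p = 1.00 in edgeR), followed by *Acp62F* with -1.71 ± 0.88, *Ebp* with -1.61 ± 0.83 and *Sfp24C1* with -1.93 ± 1.01. Without 1 library in turn they ranged from -5.65 to -1.92 for *Sfp93F*, -2.26 to -0.996 for *Acp62F*, -2.10 to -1.02 for *Ebp* and -3.24 to -0.14 for *Sfp24C1*.

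Genes that work with the members gave the context. Of all genes, 20.8% were called higher in males than in females, and 3081 of 16212 were called lower. In deletion males over DGRP_208 males 0.0617% of all genes were called, and in *208-ΔG* males over DGRP_208 males 0%. The counts for the lists below stand against these. The sex peptide network is a set of male proteins through which sex peptide is bound to stored sperm, and all 8 of its genes measured, *CG9997*, *CG17575*, *lectin-46Ca*, *lectin-46Cb*, *antr*, *aqrs*, *intr* and *Sems*, were higher in males than in females. Their log2 fold changes had a median of 3.44, with *antr* at 4.31 and *CG17575* at 4.10. In deletion males over DGRP_208 males 0 of 8 were called, with a median of -0.28, and *antr* was at -0.63 ± 0.51 (SE). Of 4 genes on the female side, the receptor gene *SPR*, *frma* and *Esp* were lower in males, at -0.65, -0.45 and -0.80 on the log2 scale, and *hdly* was at -0.01 with no call.

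Another 17 genes encode other proteins of the seminal fluid, such as esterase 6, serpins and odorant-binding proteins. Of these 12 were higher in males and 0 were lower, with *Obp51a* at a log2 fold change of 6.69 and *Obp56f* at 6.31. None was called in deletion males over DGRP_208 males, where the median was -0.41, the smallest p being that of the glucose dehydrogenase gene *Gld* (-0.94 ± 0.21, SE, adjusted p = 0.429 in edgeR). In *208-ΔG* males over DGRP_208 males their median was -1.19, *Gld* was at -1.42 ± 0.28, *Est-6* at -1.34 ± 0.39 and *Obp56g* at -1.19 ± 0.36, with 0 of 17 called. By unadjusted p in edgeR 8 of the 17 were under 0.05 there, against 12.2% of all genes. The medians of this list lay beside those of the members in both comparisons, -0.38 and -1.06.

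Of the regulators of the gland, *prd*, *dve*, *Abd-B* and *dsx*, 0 of 4 were called in *208-ΔG* males over DGRP_208 males, with *dsx*, the sex determination gene, at -0.59 ± 0.17 (SE, adjusted p = 0.405 in edgeR) and *prd*, which the accessory gland needs to form, at 0.35 ± 0.76. Between the sexes *dsx* and *prd* were higher in males, at 0.51 and 1.13 on the log2 scale, and *dve* and *Abd-B*, at 0.04 and 0.22, were not called. Of 20 testis markers tested, 18 were higher in males and 0 of 20 were called in deletion males over DGRP_208 males, where their median was 0.12. By line that median was 0.41 in *208-ΔA*, 0.50 in *208-ΔF* and -0.58 in *208-ΔG* males. In *208-ΔG* males it was -1.10 over *208-ΔA* and -1.15 over *208-ΔF* males, with 0 of 20 called in each. The medians of the members in these 2 comparisons were -1.29 and -0.91. Of 14 ovary, eggshell and yolk markers all were lower in males, and so were both markers of the spermatheca, the sperm store of the female. Of both lists 0 genes were called in deletion males over DGRP_208 males. The ovary list summed to 1533 CPM in *208-ΔA* male replicate 2 and 341 CPM in *208-ΔF* male replicate 1, the highest of the male libraries.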

How the data were processed

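Reads were filtered with AfterQC, aligned with GSNAP to the dm6 reference and counted per gene with featureCounts of Subread by the authors. The deposited values are raw counts of unique alignments per gene, not normalised, with the gene length. The strand setting of the counting is not given in the sources used here. The members and lists were chosen with earlier results of these data known. Symbols were found for 17287 of 17490 identifiers, and positions come from the Ensembl annotation of BDGP6, which is dm6.

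Genes with a median of at least 2 counts over 16 libraries were kept (16212 genes). Counts were scaled by TMM and tested with edgeR 4.0.16 (glmQLFit, glmQLFTest) in R 4.3.3, with the 8 groups of line and sex as the model and 8 residual degrees of freedom. The value for deletion males is the mean of the log2 values of 3 lines. The Benjamini-Hochberg adjustment covered all genes kept, and an adjusted p under 0.05 was called. RPKM is CPM per kilobase of the deposited gene length, and CPM is printed on the TMM scale unless a share of counts is named. The chemoreceptor median uses total counts. Scripts were tested on simulated data.

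Every member is named at least once. Full statistics are given for *SP*, *Dup99B*, *Acp26Aa*, *Acp36DE*, *Acp62F*, the *Mst57D* genes, *Ebp* and *EbpII*, for up to 10 called members of a comparison with the smallest p, and for up to 4 where none was called. Alternatives were DESeq2 1.42.0, 2 other scalings, 2 other filters, a linear model per gene, a threshold of 0.1, a replicate block, libraries of 1 sex alone and refits without libraries. A chemoreceptor covariate and scaling to the members' summed counts were added after the data were seen. Replicates of a group differed beyond sampling noise (chi-square per degree of freedom over 18), so none was counted as a duplicate.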

Additional observations from a re-analysis of the deposited data

Results flagged for a closer look

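In the 8 female libraries *208-ΔF* female replicate 2 lay far from the others for the summed level of the members, at 211 CPM with the next library at 100.3 CPM, a gap of 0.622 of the whole range, where 0.526 is the critical value for 8 libraries. The same library stood apart in 8 of the 10 single genes checked. The gap as a share of the range was 0.922 for *SP*, 0.894 for *Acp36DE*, 0.704 for *Acp62F*, 0.839 for *Mst57Da*, 0.966 for *Mst57Db*, 0.542 for *Mst57Dc*, 0.87 for *Ebp* and 0.744 for *EbpII*. No male library stood apart in this way. The 8 libraries are those of 4 lines. Chance flags about 1 in 20 sets, and 22 were checked, but the 9 that stood apart all concern 1 library, and the genes are part of the sum, so they are not independent of each other.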

How the results depend on the processing

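The 51 members were higher in males than in females under each alternative run. No alternative called a member in deletion males over DGRP_208 males, in *208-ΔA* or *208-ΔF* males over DGRP_208 males, in *208-ΔG* over *208-ΔF* or *208-ΔF* over *208-ΔA* males, in the test among the lines of males, or in deletion females. In *208-ΔG* over *208-ΔA* males 11 members were called by DESeq2 and 11 at an adjusted p under 0.1, against 41.7% and 46.8% of all genes, and 0 to 8 without 1 library, where 8 stand against 40.0%. In *208-ΔG* males over DGRP_208 males 0 to 4 were called without 1 library, where 4 stand against 10.7%. Without *208-ΔA* male replicate 2 and *208-ΔF* female replicate 2 no deletion comparison called a member. Whether the replicate numbers pair the samples is not given in the sources used here. The deviations of same-numbered libraries correlated at -0.77 to 0.60 over 28 pairs of groups, and 8 exceeded 0.1. No common pairing showed, which does not exclude it, and the main fit used none. With a replicate block the median of the members was -0.44 in deletion males over DGRP_208 males and -1.13 in *208-ΔG* males, and 0 were called.

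Leaving out 1 library in turn moved the median log2 fold change of the members between -0.86 and 0.25 in deletion males, -0.34 and 0.71 in *208-ΔA*, -0.69 and 0.38 in *208-ΔF*, and -1.61 and -0.27 in *208-ΔG* males over DGRP_208 males, between -1.19 and -0.35 in *208-ΔG* over *208-ΔF* males, between -0.01 and 1.13 in deletion females over DGRP_208 females, and between -1.40 and -0.28 for the difference between the sexes. With library size alone it was -0.51 in *208-ΔG* over DGRP_208, -0.51 over *208-ΔA* and -0.24 over *208-ΔF* males. Scaled to the members' summed counts, which centres the members by construction, these medians were 0.12, 0.031 and 0.024.

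In that scaling the sign turned for *SP* (0.28), *Mst57Da* (0.19), *Mst57Db* (0.15), *Mst57Dc* (0.21) and *EbpII* (0.11) in deletion males over DGRP_208 males, for *Sfp24Ba* (0.18) in *208-ΔG* over DGRP_208 males, for *Acp63F* (0.052) and *Sfp84E* (0.00748) in *208-ΔG* over *208-ΔA* males, and for *Acp63F* (0.014) and *Sfp24Ba* (0.10) in *208-ΔG* over *208-ΔF* males. Without 1 library in turn the log2 fold changes in deletion males over DGRP_208 males ranged from -0.65 to 0.47 for *SP*, -0.98 to 0.16 for *Acp36DE*, -1.05 to 0.25 for *Acp62F*, -0.61 to 0.26 for *Mst57Da*, -0.69 to 0.25 for *Mst57Db*, -0.73 to 0.42 for *Mst57Dc*, -1.08 to 0.0033 for *Ebp*, -0.77 to 0.28 for *EbpII* and -0.99 to 0.17 for *Sfp84E*. *Sfp24Ba* ranged from -0.17 to 0.92 in *208-ΔA* males and *Sfp24C1* from -0.056 to 3.04 in deletion females.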
